A study of Homo sapiens with 20 samples.

Results

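The Fc receptor loci were examined for RUNX1 binding in THP-1 cells, an established human acute monocytic leukemia line. Chromatin immunoprecipitation with sequencing (ChIP-seq), which counts DNA fragments pulled down with a protein, was made against the transcription factor RUNX1. Control cells carried a scramble shRNA (n = 6 libraries) and knockdown cells carried an shRNA against the transcription factor PU.1 (n = 6), and all cells were harvested after induction of the shRNA with doxycycline. Both groups were split over 2 experimental rounds called batches, with 3 control and 2 knockdown libraries in batch 1 and 3 control and 4 knockdown libraries in batch 2. The libraries were independent immunoprecipitations, and control and knockdown cells were different derivatives of the same parental line. The p-values thus measure the spread between cultures and immunoprecipitations within each derivative. Loss of PU.1 cannot be told apart from other differences between the derivatives or from other effects of the shRNA. Neither the level of PU.1 nor the identity of the cells can be checked in this assay.

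The loci were those of 10 genes, namely FCGR1A, FCGR2A, FCGR2B, FCGR3A, FCGR3B, FCER1G, FCAR, FCGRT, FCER1A and FCER2. A peak is a region of RUNX1 signal. Every peak that lay within 50 kb of the RefSeq span of one of these genes was taken, without regard to its values. This gave 44 of the 26642 peaks of the series. Of the 10 genes, 8 had at least 1 peak in that window. FCAR, the receptor for IgA, and FCER1A, the IgE-binding chain of the high-affinity IgE receptor, had 0. Within 100 kb, FCAR had 1 peak and FCER1A had 0. Because the genes lie close together, 14 of the 44 peaks were in the window of more than 1 gene, and each peak is described below with the gene nearest to it. Distance is the basis of that assignment, and which gene a peak acts on was not measured.

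Fc receptors bind the constant part of antibodies and let myeloid cells take up or kill antibody-coated targets. FCGR1A (the high-affinity IgG receptor), FCGR2A and FCGR3A are activating, FCGR2B is inhibitory, and FCGR3B is anchored to the membrane by a lipid and is known from neutrophils. FCER1G encodes the common gamma chain, which carries the activating motif for several receptors that have none of their own. FCGRT encodes the heavy chain of the neonatal receptor, which rescues IgG from degradation, and FCER2 encodes the low-affinity IgE receptor CD23. RUNX1 and PU.1 are transcription factors of blood cells that often bind near each other in myeloid cells.

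RUNX1 peaks covered the start sites of only 3 of the 10 genes, FCGR1A, FCGR2A and FCGRT. The 250 bases before each of these starts are printed because all 3 peaks were called lost. As described below, the calls at FCGR1A and FCGRT did not hold when certain single libraries were left out. The sequences are from RefSeq (GRCh38.p14, plus strand, 5′ to 3′), at chr1:149782444-149782693, chr1:161505207-161505456 and chr19:49512411-49512660. In the first and second, capitals mark the longest run of bases that both promoters share. In the third, capitals mark matches to the RUNX motif TGNGGT on either strand.
FCGR1A: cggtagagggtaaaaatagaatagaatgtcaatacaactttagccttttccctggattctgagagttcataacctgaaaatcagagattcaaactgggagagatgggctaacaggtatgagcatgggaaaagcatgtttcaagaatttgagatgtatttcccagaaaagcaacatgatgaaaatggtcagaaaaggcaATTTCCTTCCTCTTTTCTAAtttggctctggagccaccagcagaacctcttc
FCGR2A: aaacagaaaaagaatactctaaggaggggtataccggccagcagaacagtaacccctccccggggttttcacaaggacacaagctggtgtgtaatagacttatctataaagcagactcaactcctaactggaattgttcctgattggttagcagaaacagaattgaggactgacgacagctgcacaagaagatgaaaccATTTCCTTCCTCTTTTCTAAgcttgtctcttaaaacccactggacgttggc
FCGRT: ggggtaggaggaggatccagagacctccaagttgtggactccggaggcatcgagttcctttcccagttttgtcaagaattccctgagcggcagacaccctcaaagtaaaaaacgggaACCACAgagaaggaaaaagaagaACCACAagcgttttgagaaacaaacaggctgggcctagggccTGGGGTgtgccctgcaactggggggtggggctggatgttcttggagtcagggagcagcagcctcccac
The shared run of 20 bases lay 52 to 33 bases before the start of FCGR1A and 51 to 32 bases before that of FCGR2A. It holds 1 match to the PU.1/ETS motif GAGGAA on the minus strand. Of 35116 promoters in the reference, 2 contained the run, those of FCGR1A and FCGR2A. RefSeq promoters were matched for 9 of the 10 genes. GAGGAA occurred, on either strand, in 2 of these 9 (FCGR1A and FCGR2A) and in 23.6% of all promoters. TGNGGT occurred in 4 of 9 (FCER1G, FCGR3B, FCGR2B and FCGRT) and in 37.7% of all. The CEBP motif TTGCNNNAA occurred in 1 of 9 (FCGR3A) and in 7.81% of all. None of the 3 spellings contains another, and a match is a description of the letters and not a bound site.

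PU.1 knockdown was accompanied by lower RUNX1 signal at more Fc receptor peaks than by higher signal. Differences were tested with DESeq2 over all peaks with batch as a covariate, and a peak was called lost or gained at an adjusted p under 0.05 and a fold change over 1.1. Of the 44 peaks, 19 were called (43.2%), where 42.0% of all 26642 peaks were called, so the share called was close to the background. Of these calls, 14 were lost (31.8% of the 44, against 20.7% of all peaks) and 5 were gained (11.4%, against 21.3% of all peaks). The median log2 fold change over the 44 peaks was -0.18, against -0.025 over all peaks, and 30 of the 44 values were negative. Single peaks ranged from -1.76 to 1.1. Calls with a change over 2-fold numbered 5 of the 44 peaks (11.4%, against 17.1% of all peaks), 3 lost and 2 gained. Among these 3 losses, 2 are partners in a duplicated segment and are not independent, as described below. The sizes of the groups of peaks are small, and the difference in direction between these loci and all peaks was not tested.

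**Figure D1:**
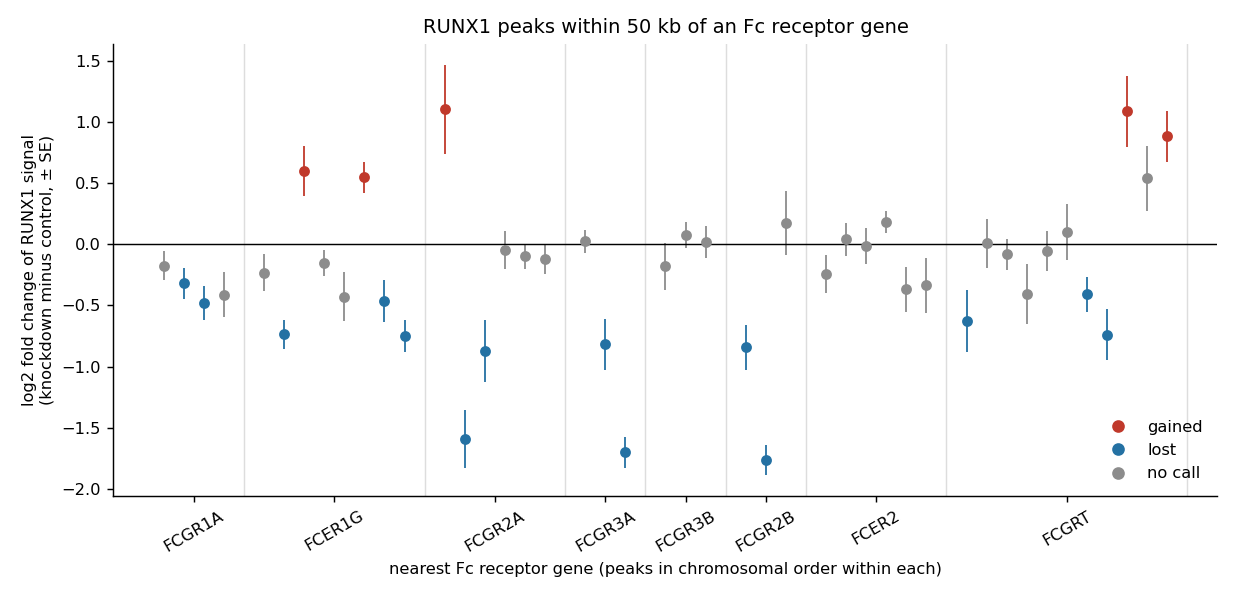
Log2 fold change of RUNX1 signal (knockdown minus control, points with bars of ± SE, vertical axis) at each of the 44 peaks, grouped along the horizontal axis by the nearest Fc receptor gene. The 14 lost peaks (blue) are spread over FCGR1A, FCER1G, FCGR2A, FCGR3A, FCGR2B and FCGRT, and the 3 peaks nearest to FCGR3B and the 6 nearest to FCER2 carry no call (grey).

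The reads behind these values were limited. Control libraries held 630247 to 1199004 in-peak reads and knockdown libraries 938745 to 1719840, and of these 1873 to 4193 per library fell into the 44 peaks. The mean normalized read count (reads divided by the DESeq2 size factor) of a peak ranged from 13.0 to 221.1 with a median of 55.7, above the median of 31.2 over all peaks. The standard error of the log2 fold change had a median of 0.16 and ranged from 0.092 to 0.36. The 44 peaks took 0.279% to 0.310% of the in-peak reads in control libraries (median 0.297%) and 0.241% to 0.262% in knockdown libraries (median 0.246%). These ranges did not overlap. A large part of the difference came from the pair of peaks with the strongest losses, described below. Their mean counts were 202.9 and 231.0 in control and 65.5 and 71.4 in knockdown libraries, so the lower share does not describe all 44 peaks.

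The lowest fold changes were found in the cluster of FCGR2A, FCGR3A, FCGR3B and FCGR2B on chromosome 1. Of its 15 peaks, 6 were lost (40.0%, against 20.7% of all peaks), 1 was gained (6.67%, against 21.3%) and 8 were without a call. Several of these losses are partners in duplicated pairs described below, so they are not all independent. The peak inside FCGR2B, the inhibitory IgG receptor, lay at chr1:161658249-161659106, 11006 bp past the start of the gene. Its normalized read count was 165.0 at the lowest, 238.5 at the median and 266.2 at the highest in control libraries, and 55.96, 67.2 and 102.1 in knockdown libraries. Every knockdown library lay below every control library. The signal fell 3.4-fold, from 231.0 ± 34.3 to 71.4 ± 16.6 (SD, n = 6 each), a log2 fold change of -1.76 ± 0.13 (SE, DESeq2 adjusted p = 5.75e-41).

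A peak between FCGR3A and FCGR2C, at chr1:161576425-161577271 and 25688 bp from FCGR3A, was also lost. Control libraries held 155.9 at the lowest, 208.3 at the median and 227.0 at the highest, and knockdown libraries 49.32, 64.19 and 96.19, so that the groups were again apart. The log2 fold change was -1.70 ± 0.13 (DESeq2 adjusted p = 1.12e-37). FCGR2C, whose span (chr1:161581339-161601220) follows this peak, is annotated as a transcribed pseudogene. Both peaks were also called within each batch alone, with log2 fold changes of -1.93 in batch 1 and -1.65 in batch 2 inside FCGR2B, and of -1.94 and -1.54 beside FCGR3A.

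Weaker peaks closer to the starts of both genes were lost as well. At chr1:161643680-161644319, 2924 bp before FCGR2B, control libraries ranged from 29.89 to 79.78 (median 51.05) and knockdown libraries from 25.02 to 37.61 (median 29.27). The groups overlapped when the batches were pooled and did not overlap within either batch (DESeq2 log2 fold change -0.84 ± 0.19, adjusted p = 3.55e-05). At chr1:161562379-161562972, 11642 bp before FCGR3A, the values were 27.29 to 60.97 (median 44.75) in control and 21.92 to 29.96 (median 23.67) in knockdown libraries. This pair of ranges overlapped, and the log2 fold change was -0.82 ± 0.21 (DESeq2 adjusted p = 0.000444).

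**Figure D2:**
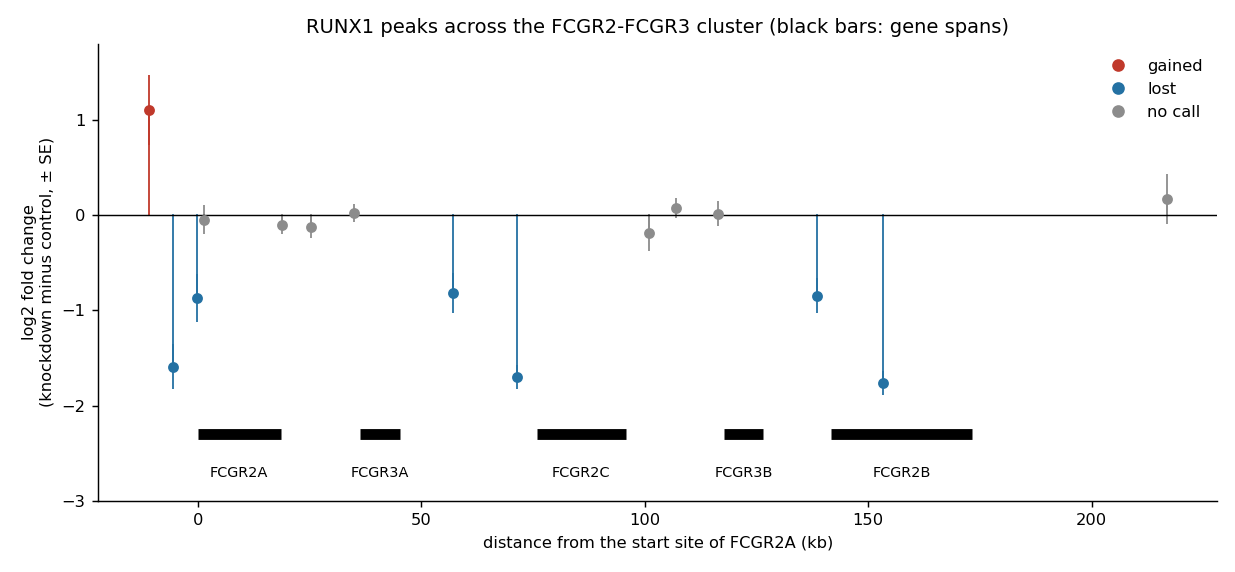
Log2 fold change of RUNX1 signal (knockdown minus control, points with bars of ± SE) at the 15 peaks of the cluster, by distance in kb from the start site of FCGR2A, with gene spans as black bars. The lowest values, -1.70 and -1.76, lie before FCGR2C and inside FCGR2B.

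FCGR2A, the activating receptor at the other end of the cluster, showed losses at and before its start and no call within the gene. The peak over its start site, at chr1:161504791-161505834, covers the promoter printed above. Its counts were 29.6 ± 4.61 in control and 15.5 ± 6.47 in knockdown libraries (SD, n = 6 each), and the ranges of 22.09 to 33.41 and 5.938 to 22.39 overlapped slightly. The log2 fold change was -0.87 ± 0.25 (DESeq2 adjusted p = 0.00243). The stronger loss was 5231 bp before the gene, at chr1:161499638-161500226, where control libraries held 32.49 at the lowest, 36.82 at the median and 47.4 at the highest. Knockdown libraries held 8.287, 11.87 and 17.78 there, all below the control libraries, and the log2 fold change was -1.59 ± 0.24 (DESeq2 adjusted p = 5.54e-10).

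The peak next to the start, 877 bp inside FCGR2A, was not called, with counts of 53.7 ± 7.96 and 52.8 ± 4.97 (DESeq2 log2 fold change -0.045 ± 0.16, adjusted p = 0.846). Farther out, 10641 bp before FCGR2A at chr1:161494256-161494816, a weak peak was gained, from 8.60 ± 6.47 to 17.4 ± 4.98 (DESeq2 log2 fold change 1.105 ± 0.36, adjusted p = 0.00798). Its groups overlapped, and the call was lost without control replicate 6 or without knockdown replicate 2 (adjusted p = 0.0571 and 0.104).

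The strongest peak of the cluster did not follow the losses. It lay 383 bp from FCGR3A, at chr1:161539684-161541376, over a tRNA gene. Control libraries held 185.8 at the lowest, 216.8 at the median and 261.5 at the highest, and knockdown libraries 198.2, 224.0 and 250.6. The groups overlapped (DESeq2 log2 fold change 0.023 ± 0.092, adjusted p = 0.868), and the sign turned without control replicate 1 or 4, to -0.018 at the lowest. Of the 44 peaks, 4 lay over a tRNA gene, and by DESeq2 0 of them were called, 0 had an unadjusted p under 0.05 and 0 were called by edgeR. Their median log2 fold change was -0.038. Over all 88 peaks at tRNA genes in the series, DESeq2 called 14 (15.9%, all lost), and the median was -0.14.

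The cluster arose by duplication of a segment, and the copies still share most of their sequence. The starts of FCGR3A and FCGR3B are 81437 bp apart, and those of the heat shock genes HSPA6 and HSPA7 beside them 81632 bp. Of the 15 peaks, 10 formed 5 pairs at that spacing (81281 to 81987 bp, within a tolerance of 600 bp). Both partners had similar log2 fold changes in the pairs that were lost, -0.82 and -0.84 in the pair before FCGR3A and FCGR2B, and -1.70 and -1.76 in the pair with the strongest losses. The 3 other pairs were not called, and their values lay between -0.18 and 0.076. Aligned reads of near-identical copies can be placed at either copy, so the partners are not independent measurements, and the loss cannot be placed at FCGR2B rather than at its FCGR2C-side copy. With the counts of each pair summed, the log2 fold changes were -0.83 ± 0.15 (DESeq2 adjusted p = 3.39e-07) and -1.73 ± 0.11 (7.55e-49). Because both partners had similar losses, their sum had to be lost too, so these values are a description and no check. In that fit 17 of 39 regions were called, 12 lost and 5 gained.

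**Figure D3:**
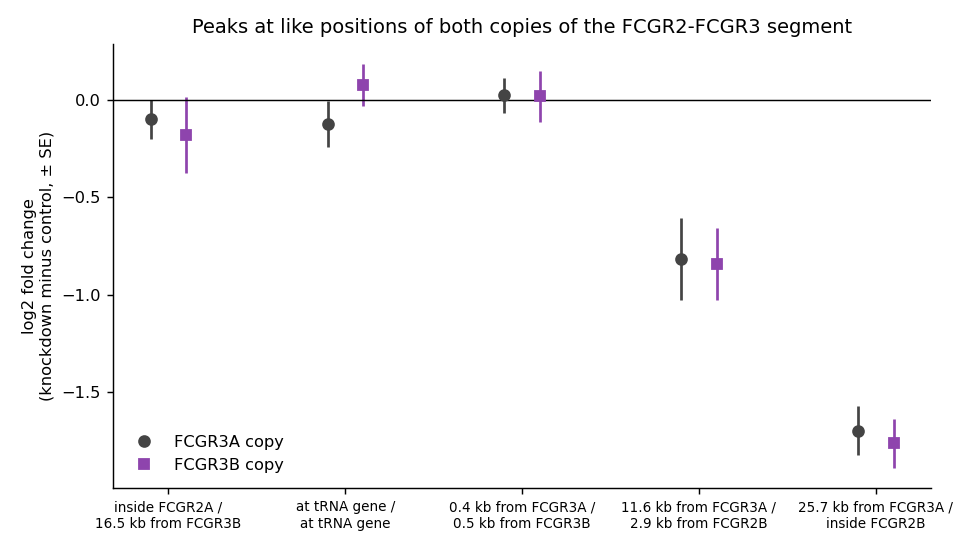
Log2 fold change of RUNX1 signal (knockdown minus control, ± SE) at 5 pairs of peaks at like positions of both copies of the segment, with the FCGR3A-side copy as circles and the FCGR3B-side copy as squares. Partners lie close together in each pair, at -1.70 and -1.76 in the rightmost.

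FCGR1A, the high-affinity receptor, lies apart from the cluster, and its losses were small. Of its 4 peaks 2 were lost. Over its start site, at chr1:149782028-149784512 and covering the promoter printed above, counts were 127.8 ± 22.2 in control and 104.3 ± 12.8 in knockdown libraries, and the ranges overlapped. The log2 fold change of -0.32 ± 0.12 (DESeq2 adjusted p = 0.0271) missed the threshold when any of 5 single libraries (control replicates 3, 4 and 5, knockdown replicates 2 and 5) was left out and when values were centred on the surrounding 10 Mb, with adjusted p up to 0.246 over all alternatives. Inside the gene, at chr1:149787370-149788598, control libraries held 79.27 at the lowest, 87.09 at the median and 101.4 at the highest, and knockdown libraries 52.27, 63.88 and 85.51. The pooled ranges overlapped and those within each batch did not (DESeq2 log2 fold change -0.48 ± 0.14, adjusted p = 0.00188). The annotation places H2BC18 over both peaks as well.

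The strongest FCGR1A peak, 28165 bp before the gene at chr1:149752815-149754529, was not called. It held 107.5 at the lowest, 124.4 at the median and 161.3 at the highest in control and 102.0, 109.8 and 138.9 in knockdown libraries, with overlapping groups (DESeq2 log2 fold change -0.17 ± 0.12, adjusted p = 0.23). FCGR1A has near-identical copies, FCGR1BP and FCGR1CP, and peaks lay at a like distance before them, 28482 and 28593 bp away. These had log2 fold changes of -0.013 ± 0.13 and -0.21 ± 0.12, also without a call. As for the cluster, reads of the copies may have been shared out between them.

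At FCER1G, the shared signalling chain, both directions occurred side by side. Binding inside the gene rose. At chr1:161216585-161218113, 1290 bp past the start, control libraries held 58.97 at the lowest, 79.53 at the median and 92.69 at the highest, and knockdown libraries 104.1, 111.9 and 125.1. Every knockdown library lay above every control library, and the mean rose from 77.3 ± 13.1 to 114.4 ± 8.19 (DESeq2 log2 fold change 0.55 ± 0.13, adjusted p = 7.75e-05). This was the only gained peak among the 10 that overlapped one of the Fc receptor genes, of which 6 were lost.

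Of the 7 other peaks nearest to FCER1G, 3 were lost, 1 was gained and 3 were without a call. In ADAMTS4, a gene for a matrix protease, the peak at chr1:161185164-161186241 lay 29054 bp from FCER1G and held 114.4 at the lowest, 119.4 at the median and 143.0 at the highest in control libraries. Knockdown libraries held 59.38, 75.35 and 83.87, all below the control libraries (DESeq2 log2 fold change -0.73 ± 0.12, adjusted p = 1.17e-08). In TOMM40L, at chr1:161227289-161228433 and 8044 bp from FCER1G, the values were 89.53, 94.29 and 110.6 in control and 52.91, 55.65 and 63.93 in knockdown libraries. These groups were apart as well (DESeq2 log2 fold change -0.75 ± 0.13, adjusted p = 8.94e-08).

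A weaker loss covered the start of TOMM40L at chr1:161225637-161226956 (53.2 ± 10.4 to 39.6 ± 4.75, DESeq2 log2 fold change -0.46 ± 0.17, adjusted p = 0.0183). It missed the threshold without any of control replicate 6 and knockdown replicates 2 and 5 and after centring on the surrounding 10 Mb.

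FCGRT, on chromosome 19, lost binding at its start and inside the gene. Over the start, at chr19:49511353-49513448 with the promoter printed above, counts were 82.5 ± 12.8 in control and 62.3 ± 8.59 in knockdown libraries (DESeq2 log2 fold change -0.41 ± 0.14, adjusted p = 0.0111). This call was lost without control replicate 4 or knockdown replicate 1. Inside the gene, at chr19:49515686-49516685, control libraries held 27.92 at the lowest, 37.6 at the median and 46.83 at the highest, and knockdown libraries 17.35, 23.62 and 30.75. The groups overlapped when pooled and were apart within each batch at both peaks, and the log2 fold change inside the gene was -0.74 ± 0.21 (DESeq2 adjusted p = 0.00159).

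Gains stood on the other side of FCGRT. The start of RCN3, which encodes a calcium-binding protein of the endoplasmic reticulum, carried a weak peak at chr19:49527581-49528134, 1153 bp past the end of FCGRT. Control libraries held 5.761 at the lowest, 10.27 at the median and 13.87 at the highest, and knockdown libraries 19.16, 21.77 and 26.77, all above the control libraries (DESeq2 log2 fold change 1.09 ± 0.29, adjusted p = 0.000848). In NOSIP, at chr19:49567796-49568536 and 41368 bp away, the values were 17.59, 21.48 and 26.06 in control and 32.88, 43.85 and 49.39 in knockdown libraries. The groups were apart (DESeq2 log2 fold change 0.88 ± 0.21, adjusted p = 0.00012).

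Before FCGRT, the start of FLT3LG, the ligand of the receptor kinase FLT3, was covered by a peak at chr19:49473851-49474445 that was lost (24.1 ± 4.81 to 15.0 ± 3.29, DESeq2 log2 fold change -0.63 ± 0.25, adjusted p = 0.0324). This was the least stable call, missing the threshold under 9 of 20 alternatives, 8 of which left out a single library (control replicates 2, 4, 5 and 6, knockdown replicates 3 to 6). The strongest of the 11 peaks nearest to FCGRT, at chr19:49487126-49488374 over the start of the ribosomal protein gene RPL13A, held 68.0 to 91.2 (median 82.56) in control and 70.32 to 87.33 (median 76.55) in knockdown libraries. It was not called (DESeq2 log2 fold change -0.083 ± 0.13, adjusted p = 0.642). The 6 peaks of FCGRT without a call ranged from -0.41 to 0.54.

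**Figure D4:**
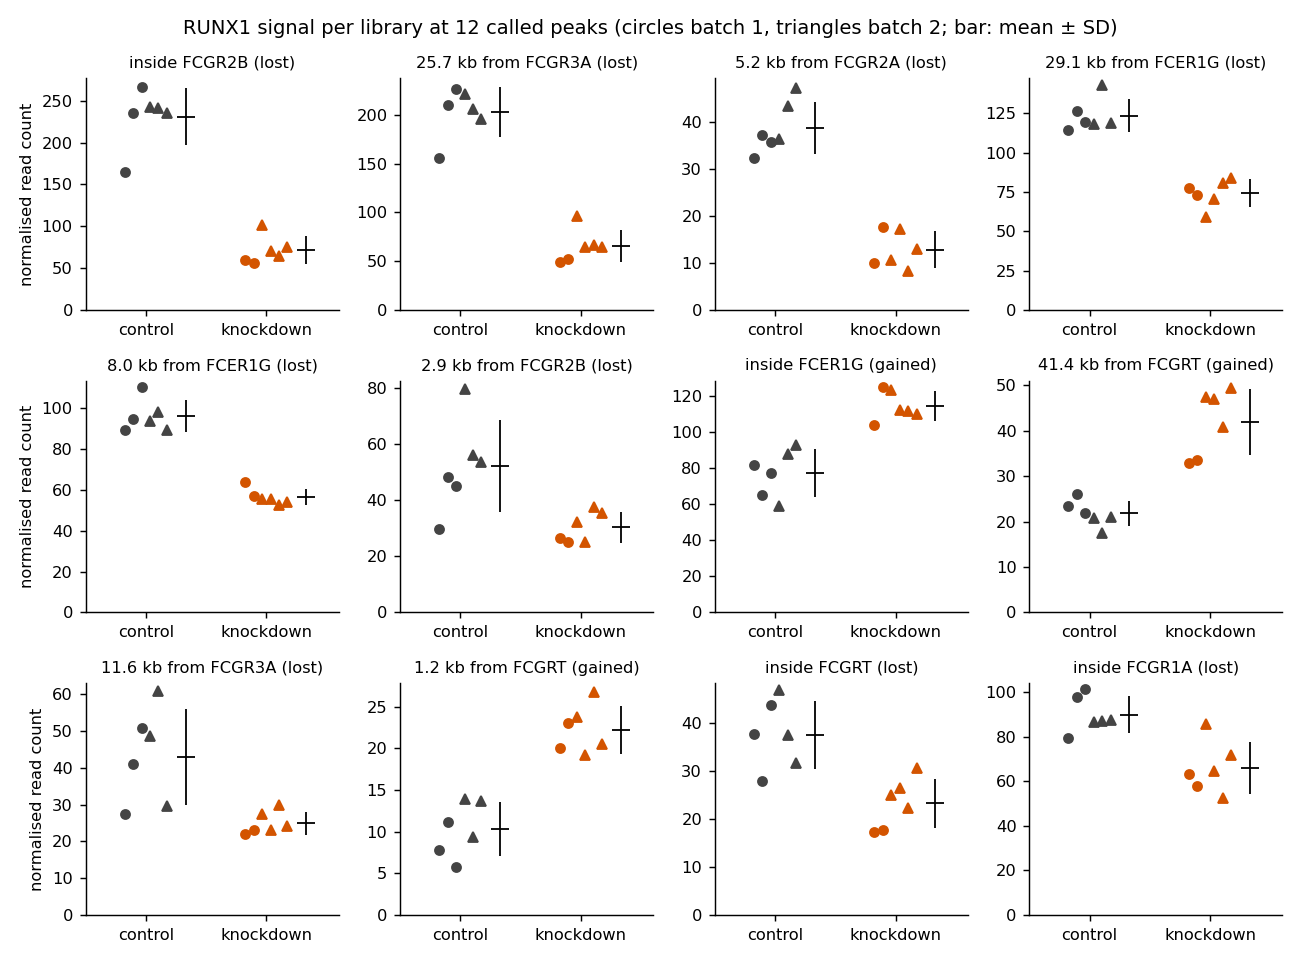
Normalized read count in each library (vertical axes, starting at 0) at the 12 called peaks with the smallest adjusted p, control in grey and knockdown in orange, circles for batch 1 and triangles for batch 2, with bars of mean ± SD. Inside FCGR2B the control libraries sit between 165.0 and 266.2 and the knockdown libraries between 55.96 and 102.1, and inside FCER1G the order is turned.

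FCER2 had 6 peaks and no call. By DESeq2 0 of the 6 were called, 1 had an unadjusted p under 0.05 and edgeR called 0. Their log2 fold changes ranged from -0.37 to 0.18. The strongest, at chr19:7675517-7678355 and 10421 bp from FCER2, covers the start of MCEMP1, a membrane protein gene of mast cells and myeloid cells. Control libraries held 133.7 at the lowest, 148.5 at the median and 161.3 at the highest, and knockdown libraries 154.6, 162.7 and 179.9. Within each batch the knockdown libraries lay above the control libraries, but the log2 fold change of 0.18 ± 0.093 was not called (DESeq2 adjusted p = 0.106). It was called after centring on the surrounding 10 Mb (0.23, DESeq2 adjusted p = 0.0387).

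Peaks inside the Fc receptor genes and peaks around them can be set side by side as a description. Of the 10 peaks that overlapped a gene, 7 were called (70.0%, against 42.0% of all peaks) and the median log2 fold change was -0.41. Of the 34 outside, 12 were called (35.3%, 4 gained and 8 lost) and the median was -0.14. These groups are small, and the difference between them was not tested. Peaks over the start of a coding gene of any name numbered 13, of which 5 were lost and 1 was gained, with a median of -0.32. Over all 4726 such peaks in the series, 18.5% were lost, 2.86% were gained and the median was -0.185. Losses thus outnumbered gains at starts in the series as a whole too.

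Values within single batches are given as a description. All 19 called peaks had log2 fold changes of the same sign in batch 1 and in batch 2. The calls came from a fit of both batches together, so like signs were favoured by the selection and are no separate check. The DESeq2 fit of batch 1 alone called 4 of the 44 peaks lost and 0 gained, where 6.61% of all peaks were lost and 5.38% gained. At an unadjusted p under 0.05, 8 peaks were lower and 4 higher in that fit. The share of all peaks at this cutoff was not counted, so these numbers have no background. In the same batch edgeR called 9 lost and 4 gained, where it called 14.1% of all peaks lost and 13.2% gained. The fit of batch 2 alone called 9 lost and 2 gained, where 13.1% of all peaks were lost and 12.8% gained, and these 11 included the 4 of batch 1. Knockdown and control libraries did not overlap in either batch at 13 of the 44 peaks, 4 above and 9 below, against 28.3% of all peaks (14.4% above, 13.9% below), and 12 of the 13 were called. Whether the batches differed in the effect was tested by the product of genotype and batch. At an adjusted p under 0.05, DESeq2 and edgeR found 0 of 44 peaks, and at an unadjusted p under 0.05 DESeq2 found 0 and edgeR 1. Over all 26642 peaks, DESeq2 found 0 at an adjusted and 669 at an unadjusted p under 0.05. The adjusted test thus found no peak anywhere, so its result at the 44 peaks does not show that the batches agree. All peaks of chromosome 1 in a window of 10 Mb around the loci had median log2 fold changes between -0.15 and -0.11, those around FCER2 between -0.048 and -0.045 and those around FCGRT between 0.093 and 0.095. The part of these regional shifts in single values was not tested further than by centring on them.

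Peaks near other genes of antibody recognition were read out in the same fit. At the other Fc receptor genes, 27 further peaks were found, of which 12 were lost (44.4%, against 20.7% of all peaks) and 0 gained (against 21.3%). Their median log2 fold change was -0.33. At an unadjusted p under 0.05, 14 were lower and 0 higher, a cutoff at which the share of all peaks was not counted. edgeR called 13 lost and 1 gained, where it called 22.9% of all peaks lost and 24.1% gained. The peaks of FCGR2C are all among the 44. Of the 27 peaks, 9 lay near FCGR1BP or FCGR1CP, and 4 of the 12 losses were among them. As these are near-identical copies of FCGR1A, they are not independent of the losses at FCGR1A. The 18 remaining peaks held 8 losses and had a median of -0.37. The lowest adjusted p belonged to a peak inside FCRL4, an Fc receptor-like gene of B cells, at chr1:157594989-157596051. Control libraries held 155.5 at the lowest, 173.8 at the median and 179.4 at the highest, and knockdown libraries 32.37, 45.9 and 57.78. The groups were apart (DESeq2 log2 fold change -1.97 ± 0.13, adjusted p = 7.62e-49). A peak 22804 bp from FCRL3 at chr1:157652822-157653677 fell from 58.4 ± 8.21 to 26.2 ± 3.55 (DESeq2 log2 fold change -1.15 ± 0.18, adjusted p = 1.75e-09).

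Near the kinases and adaptors that carry the activating signal, RUNX1 signal changed in both directions, much as over all peaks. Of 164 peaks near 28 genes, 43.9% were called, close to the 42.0% of all peaks. Gained were 33 (20.1%, against 21.3% of all peaks) and lost 39 (23.8%, against 20.7%), with a median of -0.070. Gains with the smallest adjusted p stood inside the exchange factor genes VAV3 and DOCK2 and the adaptor gene PIK3AP1. Others stood well past the ends of VAV1, an exchange factor gene, and of PIK3R1, a regulatory subunit of PI3 kinase. Inside VAV3, at chr1:107926232-107927324, counts rose from 65.2 ± 10.1 to 127.8 ± 10.2 (DESeq2 log2 fold change 0.95 ± 0.13, adjusted p = 1.94e-12). The log2 fold changes were 1.36 ± 0.18 in PIK3AP1 (chr10:96718365-96719181) and 1.34 ± 0.22 in DOCK2 (chr5:169805035-169806131). They were 1.06 ± 0.17 at the peak 35335 bp beyond VAV1 (chr19:6892696-6894460) and 1.12 ± 0.18 at the peak 31979 bp beyond PIK3R1 (chr5:68333800-68334786). At all 5, the libraries of both groups were apart in each batch. Each is a single peak among those within 50 kb of the gene. Over all peaks in that window, 4 were gained and 1 lost at VAV3, 6 and 1 at DOCK2 and 3 and 1 at PIK3AP1. At PIK3R1 2 were gained and 2 lost, and at VAV1 1 was gained and 2 were lost. Losses stood inside the catalytic subunits of PI3 kinase, with -1.34 ± 0.20 in PIK3CD (chr1:9629491-9630476) and -1.06 ± 0.16 in PIK3CG (chr7:106895011-106895755).

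On the inhibitory side, losses outnumbered gains. The list held 10 genes for phosphatases, kinases, ubiquitin ligases and Dok adaptors, of which 9 had a peak (CBLB had none). Of their 44 peaks 36.4% were called, below the 42.0% of all peaks. DESeq2 called 15 lost (34.1%, against 20.7% of all peaks) and 1 gained (2.27%, against 21.3%), with a median of -0.31. The losses were uneven, with 5 of 8 peaks at DOK2 and 4 of 9 at INPP5D, which also held the gain. CSK and DOK3 had 2 losses each and INPPL1 and CBL 1 each, while PTPN6, PTPN11 and DOK1 had no call. edgeR called 17 lost and 3 gained, where it called 22.9% and 24.1% of all peaks. The loss with the smallest adjusted p lay 2621 bp from DOK2, an adaptor that restrains kinase signalling, at chr8:21905483-21906252. It held 30.48 at the lowest, 45.95 at the median and 62.44 at the highest in control libraries and 5.591, 7.254 and 15.44 in knockdown libraries. The groups were apart (DESeq2 log2 fold change -2.54 ± 0.27, adjusted p = 2.27e-19). Over all 3 lists, 100 of 235 peaks were called (42.6%), 66 lost and 34 gained, and whether the lists differ from each other or from all peaks was not tested.

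**Figure D5:**
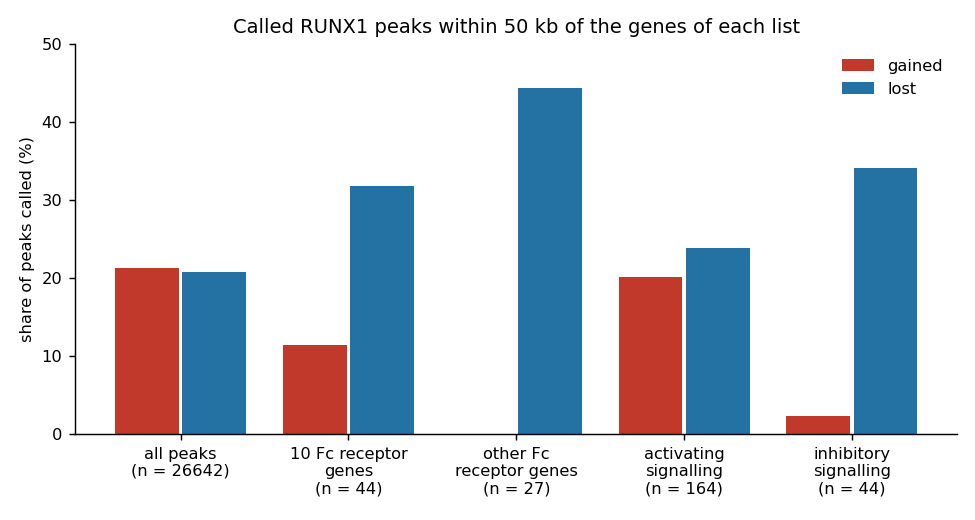
Share of peaks called gained (red) or lost (blue), in percent, over all peaks, the 44 peaks of the 10 Fc receptor genes and the 3 lists of related genes. Over all peaks the shares are nearly equal (21.3% and 20.7%), and among the 44 peaks they are 11.4% gained and 31.8% lost.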

How the data were processed

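RUNX1 ChIP-seq libraries of THP-1 cells were analysed from the deposited table of raw read counts per peak. The authors made these counts with featureCounts over 1 peak set common to both groups. That set came from macs2 calls that recurred in both batches, on bowtie2 alignments without duplicate reads. The peaks were thus called on the libraries compared. The deposited peak widths (other information) were printed for no test. The 8 IgG libraries were not analysed here. The methods name a mouse build and the submitters' processing notes name GRCh38 too. Of the peaks, 17.7% covered a GRCh38 coding start, against 0.965% to 1.39% when shifted by 10 kb to 1 Mb, so coordinates were read as GRCh38. Placement of reads with several matches is not given in the sources used here.

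All 26642 peaks were fitted with DESeq2 1.42.0 in R 4.3.3 (batch plus genotype, median-of-ratios size factors, Wald test, Benjamini-Hochberg adjusted p under 0.05, fold change over 1.1 as in the methods). These size factors centre the fold changes near 0, so a global gain or loss would not be seen. In-peak totals are given as depth, and totals of mapped reads were not used. The alternatives were edgeR 4.0.16, other size factors, covariates, thresholds and windows, each library left out and, added after seeing the data, duplicated peaks summed. Tools were tested on simulated data. The members, gene lists and tests were chosen with earlier results of these data known. All called peaks and each gene's strongest peak are named, except 2 peaks near FCER1G that are counted and not reported singly here, and of the lists the 5 calls with the smallest adjusted p in each direction. FCGR1B was not matched in the gene table.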

Additional observations from a re-analysis of the deposited data

Results flagged for a closer look

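In 4 of 50 groups of 6 libraries searched, 1 library stood apart from the rest by a gap above Dixon's 95% critical value, where chance gives about 1 in 20 groups, or 2.5. Knockdown replicate 3 was the library concerned in 3 of them. It held the highest knockdown count at the FCGR1A peak chr1:149752815-149754529, at 138.9 against 102.0 to 113.0 in the others. It was also highest at the lost peak 25688 bp from FCGR3A, at 96.19 against 49.32 to 66.29. Its share of in-peak reads in the 44 peaks was 0.2624% (95% Wilson interval 0.2522% to 0.2729%, counting error only), against 0.2413% to 0.2488%. Control replicate 1 held the lowest control count inside FCGR2B, at 165.0 against 234.9 to 266.2. Without single libraries, the log2 fold change stayed between -1.79 and -1.64 at the peak beside FCGR3A and between -1.85 and -1.71 inside FCGR2B.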

How the results depend on the processing

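Over 20 alternatives for each of 19 called peaks, 349 values kept direction and call and 31 lost the call, with 0 reversals. Among uncalled named peaks, the FCGR3A peak at the tRNA gene reversed, with leave-one-out values between -0.018 and 0.081. The 19 calls became 5 at fold 2 (3 lost, 2 gained), 12 of 22 peaks with a 10 kb window (10 lost, 2 gained) and 16 to 20 without single libraries. All 11185 calls became 4545 at fold 2 and 9741 to 10764 without single libraries, and the 100 calls of the lists 41 at fold 2, 62 of 137 with a 10 kb window and 87 to 99. Batch 1 gave 13 calls with edgeR (9 lost, 4 gained) and 2 without any 1 library, and batch 2 gave 17 and 7 to 9. In motif counts, TGTGGT alone matched 2 of 9 promoters and the ETS core GGAA 8 of 9.

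Replicate numbers pair no samples, since correlations of deviations ran from -0.101 to 0.0125 and number 3 crosses batches. With the replicate block, 11 Fc receptor peaks were called (8 lost, 3 gained) and 7289 of all peaks. Depth limits weak peaks, where standard errors reached 0.36.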

Other observations

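The genes FCRL1 to FCRL5, Fc receptor-like genes expressed mainly in B cells, were singled out after their values were seen. Of 6 peaks within 50 kb of them, 5 were lost (83.3%, against 20.7% of all peaks), with a median log2 fold change of -1.46. The only peak of FCRL1 is also the only peak of FCRL2. Beside FCRL4 and FCRL3, a weak peak at the start of FCRL2 (chr1:157776898-157777318) fell from 15.5 ± 4.42 to 3.14 ± 1.62 (DESeq2 log2 fold change -2.35 ± 0.43, adjusted p = 4.01e-07). Inside FCRL5, at chr1:157516922-157517454, counts fell from 20.9 ± 3.30 to 6.15 ± 2.76 (DESeq2 log2 fold change -1.63 ± 0.32, adjusted p = 2.83e-06). At the remaining lost peak, 570 bp from FCRL5 at chr1:157511925-157512807, the log2 fold change was -1.29 ± 0.23 (DESeq2 adjusted p = 2.25e-07). In each of these 3 peaks, every knockdown library lay below every control library.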
